A study of Vitis vinifera with 4 samples.

Results

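The event-poor windows of the MYBPA1 binding map are stretches of 1 Mb in which the deposited list places 30 or fewer binding events. Windows were laid from the first base of each of the 19 numbered chromosomes, each event was counted at its middle base, and the last window of each chromosome was left out. Of 449 full windows, 48 (10.7%) were event-poor, and they held 794 of the 30318 events in the list. The remaining events were 28321 in the other 401 full windows, 721 in the last windows and 482 on chr00, the name for sequence not placed on a chromosome. The members were chosen by the number of events per window alone, so their low density and wide spacing are described here without a test. Signal and significance were used in the choice only through the list, which holds no signal below 22 and no −log10 q below 2. Sites below these limits were not counted, so later comparisons of signal and significance are not fully independent of the choice.

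The study mapped binding by DNA affinity purification sequencing (DAP-seq) of the grapevine protein MYBPA1. The design had 2 libraries for MYBPA1 carrying a HALO affinity tag and 2 libraries for pIX-HALO, the tag without the factor. Both groups used DNA of young leaves of Vitis vinifera cultivar Pinot Noir, clone PN-94, and tagged protein made in rabbit reticulocyte lysate. The outcome was 1 list for MYBPA1 with no values per library, so the depth is unknown, no replicate error exists, and no value could be set against a spread between libraries.

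MYBPA1 is a transcription factor of the R2R3-MYB family, and in grapevine it is known as an activator of proanthocyanidin synthesis. Proanthocyanidins are the condensed tannins of seeds and young berry skin, and the enzymes that make their units, leucoanthocyanidin reductase and anthocyanidin reductase, are known targets of this branch of regulators. In DAP-seq the tagged factor is offered purified genomic fragments in a tube, and the retained fragments are sequenced. An event therefore marks DNA that the protein can hold without chromatin. No genome sequence or annotation in these coordinates was used here, so events are given by position and not by gene.

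The 48 windows were far below the usual density. They held a median of 15.5 events (quartiles 8 and 26.3), compared with a median of 70 in the other windows. The mean was 16.5 events per Mb against 70.6, a ratio of 4.27 that the choice of windows fixes. They made up 2.73% of the events in full windows (95% Wilson interval 2.55 to 2.92%) and 2.53% of the summed signal. By size, 17 windows held at most 10 events, 11 held 11 to 20, and 20 held 21 to 30. At the edge of the rule, the windows on chr02 from 12000001 to 13000000 and on chr18 from 17000001 to 18000000 held 30 events and were included. Those on chr10 from 13000001 to 14000000 and from 20000001 to 21000000 held 31 and were not. Median signals there were 48.5 and 50.3 just inside and 35 and 39 just outside, so the windows beside the limit did not follow the order of the counts.

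Event-poor windows occurred on 17 of the 19 chromosomes and were not spread evenly over them. Chr09 and chr19 had 7 each, 31.8% and 29.2% of their full windows. Chr16 and chr18 had 5 each. These 4 chromosomes together held 24 of the 48 windows and 385 of the 794 events, and 103 of the 449 full windows (22.9%). Relative to its number of windows, chr18, with 14.7% event-poor, was close to chr15 with 15%, while chr16 had 21.7%. Chr04 and chr17 had none, and their sparsest windows held 39 and 37 events. Along the chromosome, positions were taken as a percentage of the stretch between the outermost events of the chromosome, called its span, since chromosome lengths were not used. Cut into 3 equal parts, the span held 30 of the 48 windows in its middle part, 6 in the part before and 12 in the part after, while full windows in all numbered 149, 155 and 145 there. The share of windows that were event-poor was 23.9% between 50 and 60% of the span and 20% in the classes of 10% on either side. Below 10% of the span, 0 of 43 windows were event-poor, and above 90% it was 1 of 38. The outermost event-poor windows lay at 12.3% of the span on chr15, at 14.8, 19.04 and 91.2% on chr16, at 89.2% on chr09 and at 84.3% on chr13.

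**Figure D1:**
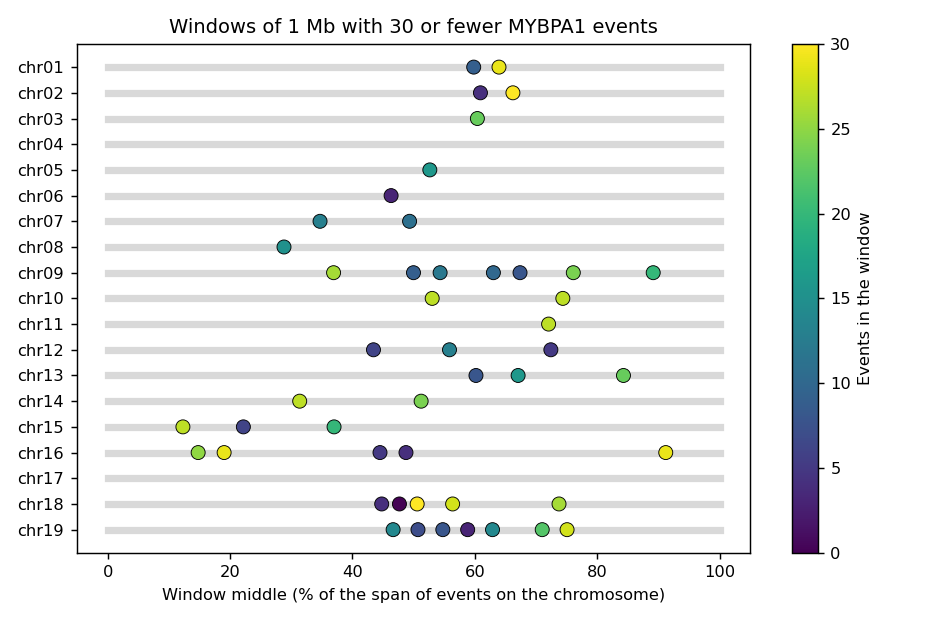
Each point is an event-poor window, placed at its middle along the span of events of its chromosome (horizontal axis, percent of the span) and coloured by its number of events (0 to 30). Of the 48 points, 30 lie in the middle 33.3% of the span, chr09 and chr19 have 7 each, and chr04 and chr17 have none.

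Most event-poor windows stood alone. The 48 windows formed 35 separate stretches, of which 26 were a single window, 7 were pairs and 2 were longer. The longest lay on chr19 from 11000001 to 16000000, where 5 adjacent windows held 14, 7, 8, 3 and 14 events. The windows on its flanks held 47 and 64. The second lay on chr18 from 15000001 to 18000000, with 4, 0 and 30 events between flanking windows of 76 and 39. The drop was abrupt on chr18, from 76 to 4 events between neighbouring windows, and more gradual on the far side. The 64 windows next to an event-poor window and above the limit had a median count of 49.5 and ran from 31 to 99, and 15 of them (23.4%) held 66 or more. Of all windows above the limit, 56.9% held that many. A window of 99 events directly followed the 15 events on chr08 from 6000001 to 7000000.

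The layout of events within the windows is tied to the low counts that chose them and is given as a description. Of the 480 pieces of 100 kb, 236 (49.2%) held no event, against 224 of 4010 (5.59%) in the other windows. The 244 occupied pieces held a mean of 3.25 events, compared with 7.48 in the occupied pieces of other windows. Empty pieces and thinly filled ones both follow in part from counts of 30 or fewer. The longest event-free stretch inside a window had a median of 420 kb (range 161 to 1000), against 103 kb elsewhere (up to 457). It exceeded 500 kb in 17 event-poor windows and in 0 of the other 401. Single windows differed in layout at similar counts. The window on chr16 from 21000001 to 22000000 had 18 of its 29 events in its first 100 kb. On chr14 from 15000001 to 16000000, 16 of 24 events stood in the last 100 kb. On chr11 from 14000001 to 15000000 the pattern was the opposite. Its 27 events left no piece of 100 kb empty and the longest gap was 161 kb, so this window was thin throughout.

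The sparsest windows can be given event by event. On chr06 from 10000001 to 11000000 there were 3 events. Those at 10840650 to 10840850 and 10841913 to 10842113 had signals of 47 and 82.9 and stood 1263 bp apart. The third, at 10981190 to 10981390, had 27. The 841 kb of the window before this pair were empty. On chr19 from 14000001 to 15000000 the 3 events had signals of 27.1, 51 and 22 and all lay between 14660918 and 14707661. The chr19 window thus held a single small area with events and was otherwise empty. On chr06 the third event stood 139277 bp from the pair. The 4 events on chr02 from 11000001 to 12000000 had signals of 55, 91, 56 and 33, and the first 3 of them lay between 11007225 and 11030502, at the edge of the window. The signal of 91, at 11013133 to 11013333, came with a −log10 q of 21.1. The 4 events on chr18 from 15000001 to 16000000 were weaker, with signals of 29, 31.5, 49.9 and 38. They were spread over the window and not gathered at an edge. The last of these, at 15951939 to 15952139, was the most isolated event among the members, with its nearest neighbour 428 kb away.

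Few events did not mean weak events in every sparse window. On chr16 from 11000001 to 12000000 the 4 signals were 71, 50, 74 and 88, the highest median (72.5) among windows of at most 10 events. The event of 88, at 11931288 to 11931488, had a −log10 q of 25.4, and the event of 74, at 11494542 to 11494742, stood 406 kb from its nearest neighbour. The adjoining window, from 10000001 to 11000000, held 5 events of 23.4, 82.6, 27.1, 33 and 27. The lowest median was on chr12 from 10000001 to 11000000, where 6 events had signals of 24.8 to 49.7 with a median of 26.4. No event there reached 50, and 1 of the 6 reached a −log10 q of 5.

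The other windows of at most 10 events lay between these extremes. On chr09, the window from 11000001 to 12000000 held 9 events with a median signal of 46.6 and a maximum of 414, the strongest event of any window this sparse. Farther along the same chromosome, the adjacent windows from 14000001 to 16000000 held 10 and 8 events with medians of 30.4 and 38.5. In the second of these, 7 of the 8 events reached a −log10 q of 5 although the highest signal was 80.9. On chr01 from 14000001 to 15000000, 9 events had a median of 41 and a maximum of 172. The 8 events on chr13 from 17000001 to 18000000 had a median of 30 and a maximum of 156, and their window lay between windows of 77 and 68 events. On chr15 from 4000001 to 5000000, 6 events had a median of 52.5, and 4 of them stood in the same 100 kb. On chr12 from 17000001 to 18000000, 5 events with signals of 27 to 105.4 ended at 17272611, and 727 kb after them were empty. Inside the long stretch on chr19, the windows of 7 and 8 events had medians of 33.3 and 46.8 and maxima of 171 and 114.5. Of the 16 windows with 1 to 10 events, 8 had a maximum of 100 or more, and of the 31 windows with 11 to 30 events, 30 had. A maximum rises with the number of events, so this contrast follows at least in part from the counts.

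The 10 strongest members lay on 8 chromosomes. The highest signal was 691, on chr01 from 15820826 to 15821026, with a −log10 q of 181 and the nearest other event 25.4 kb away. It ranked 57th among the events of numbered chromosomes. The second, with 651, lay on chr14 from 9049604 to 9049804, and the third, with 518, on chr15 from 2869811 to 2870011. The third stood 39.8 kb from any other event. A signal of 490 followed on chr02 from 12769240 to 12769440, with a second event of 228 at a distance of 846 bp. Chr09 supplied 3 of the 10 strongest, in 2 adjacent windows that held 9 and 12 events. Their signals were 462.8 (12486131 to 12486331), 414 (11124604 to 11124804) and 372 (12351589 to 12351789). The others were 409.6 on chr03 from 12780814 to 12781014, 392.2 on chr07 from 13964138 to 13964338 and 381.9 on chr05 from 13945443 to 13945643.

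The last 2 of these, like the event of 462.8, had an overlapping event in the list, at 31 bp on chr07, 151 bp on chr05 and 62 bp on chr09. None of the 794 members was among the 13 events of full windows with a −log10 p of 300 or more. Of the members, 9 (1.13%, 95% Wilson interval 0.597 to 2.14%) had a signal in the top 1% of full windows, which begins at 380, against 1.00% in the other windows and a background of 1.01% over all full windows. The share of strongest events was therefore near the background. It was 0.499% (0.194 to 1.28%) when the grid of windows was shifted by 500 kb. The 2 intervals overlap, and why the values differed was not tested.

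**Figure D2:**
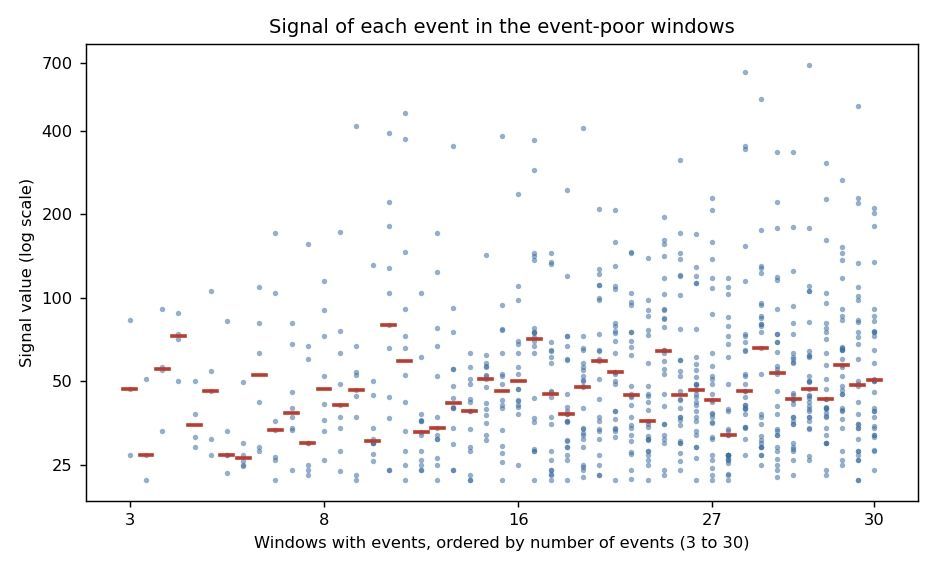
Each column is 1 of the 47 event-poor windows that hold events, ordered from 3 to 30 events. Points are the signal values of single events on a log axis and red bars are window medians, which in the 42 windows of 5 or more events lie between 26.4 and 79.9, with single events up to 691.

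Signal was compared between event-poor and other windows over events. The members had a median signal of 45 (95% interval 42.9 to 48.0, quartiles 32 and 73.8, range 22 to 691). Events in the other windows had a median of 49.2 (49 to 50, quartiles 35.9 and 78.5). The difference was −4.2 in units of a signal that starts at 22. The intervals treat events as independent, cover counting error only and understate the spread, since events in a window lie near each other. No test was made, because windows and events of 1 list are not replicates. The difference was −2.0 against the 8572 events in windows of 31 to 65 events, whose median was 47, with an interval of −4.1 to 1.0 that includes 0. Beside these moderately sparse windows, the median of the members did not stand apart beyond counting error.

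Weak events made up a larger share of the members, as they did in the next sparsest windows. The weakest 25% of events of full windows, with signals up to 35.7, were 25.1% of all those events but 260 of the 794 members (32.7%, 29.6 to 36.1%). They were 24.9% of the events elsewhere, but 32.1% (30.3 to 34.0%) of those in windows of 31 to 45 events, so the higher share was not limited to the event-poor windows. Seen from the other side, event-poor windows held 3.56% of the events in this weakest class (3.16 to 4.01%) and 2.43, 2.57 and 2.34% of those in the next 3 classes of equal size, in rising order of signal. In the top 10%, which begins at 135, the members had 68 events (8.56%, 6.81 to 10.7%), against 10.04% in other windows and a background of 10%. The interval of the members included the background. The 75th and 95th percentiles were somewhat lower in the members than in all other windows, 73.8 against 78.5 and 173 against 189.5. They were near those of windows of 31 to 65 events, 74.4 and 175. At the very top the order was the opposite, with a 98th percentile of 316 against 286 and a 99th of 383 against 380. No interval was computed for these percentiles.

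Median signal was compared between classes of windows. It was 37 (33 to 46.6) for the 99 events in windows of at most 10, 44 (40.4 to 52) for the 164 in windows of 11 to 20, and 46 (43.2 to 50) for the 531 in windows of 21 to 30. In windows of 31 to 45 events it was 45 (43.4 to 46.3), and it reached 50.9 (50 to 51.5) in windows of 86 or more. The intervals of the 4 classes up to 45 events all overlapped, and overlap alone does not decide whether these medians differ. The weakest 25% of events made up 45.5% of the events in windows of at most 10. Their share was 31.7% in windows of 11 to 20 events, 30.7% at 21 to 30 and 32.1% at 31 to 45. The interval of the share in the sparsest class overlapped that at 11 to 20 events. It lay above those at 21 to 30 and 31 to 45. Of the 16 windows with 1 to 10 events, 13 had a median below the 49.2 of other windows. Over the 42 event-poor windows with at least 5 events, 29 had a median below 49.2 and 13 above it, and count and median signal gave Spearman's rho 0.344 and Pearson's r 0.299. This is a description across windows of the same list, and medians of few events scatter widely. The value of 49.2 is a median over events, and the share of all full windows with a median below it was not counted. Counts of windows below or above 49.2, here and by chromosome, therefore have no background.

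**Figure D3:**
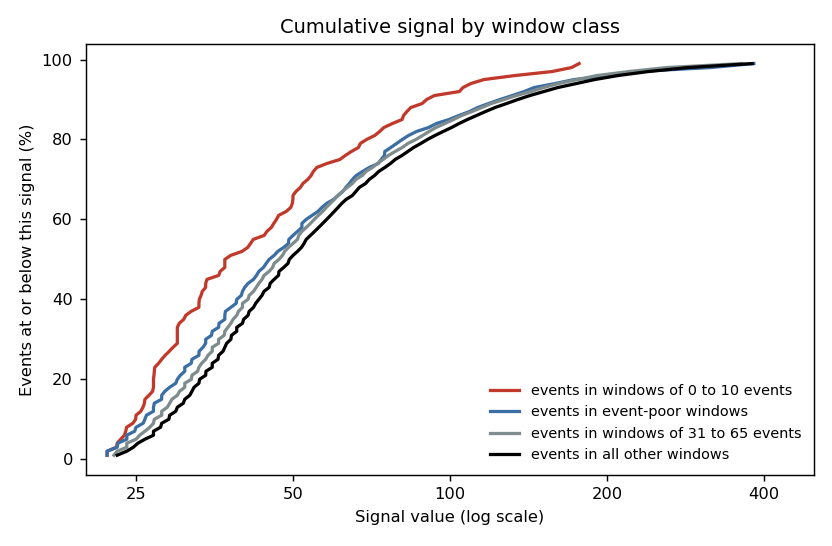
The curves give the percentage of events at or below each signal value (log axis) in windows of at most 10 events, in all event-poor windows, in windows of 31 to 65 events and in all windows above 30. The curve for at most 10 events lies to the left (median 37), while the curve for all event-poor windows (median 45) runs near that for 31 to 65 events (47).

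The chromosomes differed in this respect. The median of the members was below that of the other windows of the same chromosome on 13 of the 17 chromosomes and above it on 4. Chr19 had the clearest difference, with a median of 40.2 (36 to 44.5) over 96 members against 49 in its other windows. All 7 of its event-poor windows had medians below 49.2, from 27.1 to 46.8. Chr11 and chr12 had lower medians, 32 (27 to 61.2) and 31.6 (27 to 52), but they rest on 27 and 24 events and their intervals include 49. On chr09, which had as many event-poor windows, the members had a higher median than the other windows, 53 (44.3 to 66) against 47.2, and 4 of 7 windows lay above 49.2. Chr18 showed almost no difference, 49.9 against 49.6. Without chr19 the difference over all chromosomes was −3.0, with an interval of −5.5 to 0.5, and without chr09 it was −5.1.

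**Figure D4:**
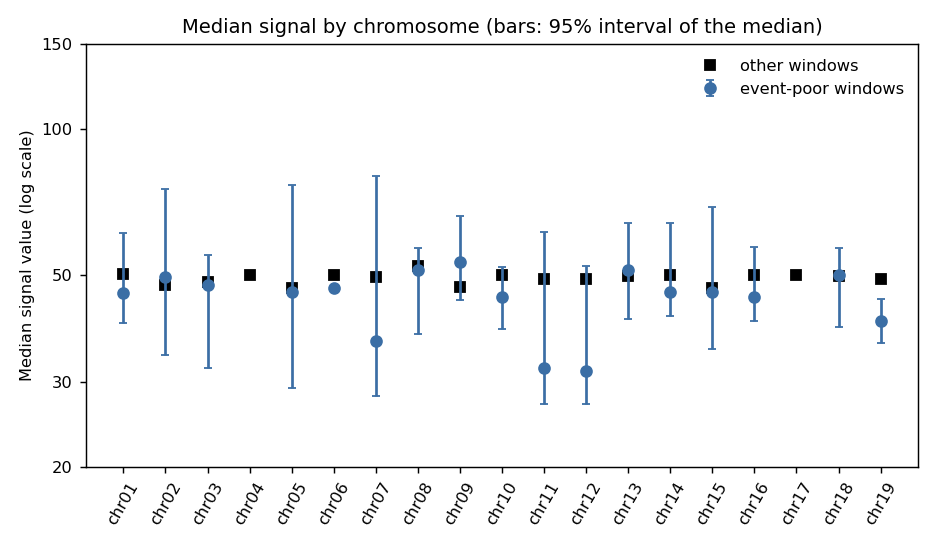
Median signal (log axis) of events in event-poor windows (circles, with 95% intervals of the median where there are 6 or more events) and in the other windows (squares) of each chromosome. The interval of chr19 lies below its square (40.2 against 49), that of chr09 includes its square (53 against 47.2), and chr04 and chr17 have no event-poor window.

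Significance was compared next. Of the members, 447 (56.3%, 52.8 to 59.7%) reached a −log10 q of 5, against 58.5% of events in other windows and a background of 58.5% over all full windows. The share was close to the background, and its interval included the value of the other windows. It was lower on 11 chromosomes and higher on 6. Chr19 and chr09 again lay on opposite sides. On chr19 the share was 43.8% (34.3 to 53.7%) against 61.0% (58.2 to 63.7%) elsewhere on the chromosome. On chr09 it was 66.1% (56.8 to 74.3%) against 56.7% (53.6 to 59.8%). An example from chr19 is the window from 15000001 to 16000000, in which 2 of 14 events reached a −log10 q of 5 and the highest signal was 63.

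The deposited p depends on more than the signal, and a control value was computed to describe this. For each event it is the control value that, set against the signal in a binomial test (one-sided, with even odds), returns the p in the list. Its scale is not known, so it is not a count of reads. It is a computed value, since the test behind the p is not given in the sources used here. For 80.4% of the 445 members that had a whole-number signal and stood over 1000 bp from any event, it fell within 0.05 of a whole number, compared with 79.9% of 14952 such events on all numbered chromosomes. A whole control value was found for 376 members over 1000 bp from any event, here without the limit to whole-number signals. Of these, 49 had 4, 74 had 7, 81 had 11 and 55 had 14, with few values in between. Further steps were 0 with 15 members, 18 with 43 and 21 with 26. Medians of this quantity therefore move in steps, and 11 and 14 are neighbouring steps.

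The implied control had a median of 10.6 (8.72 to 10.9) in the members and 10.98 (10.95 to 10.99) elsewhere. The signal over the control had a median of 4.82 (4.51 to 5.21) in the members, and 4.66 (4.61 to 4.71) elsewhere. The interval of the members included the value elsewhere. By chromosome the ratio was lower in the members on 11 and higher on 6. Without chr09 it was 4.639 (4.36 to 5.05) in the members against 4.646. The 99 events in windows of at most 10 lay higher, with a median ratio of 6.24 (4.707 to 7.50). Their median control was 6.996 (5.26 to 7.41), while their median signal was the lowest of the classes. At low signal the members had lower control values. At a given signal this restates the p, since a lower control value goes with a higher −log10 p by construction. Among events with signals from 30 to under 40 the median was 8.14 (7.005 to 10.5) for 176 members and 10.9 (10.8 to 10.96) for 6115 others, with a median −log10 p of 4.24 and 3.63. Among signals of 100 to under 200 the order was the opposite, 14.0 (13.9 to 17.99) for 86 members against 11.005 (11.002 to 11.006), with a median −log10 p of 23.1 and 26.4. In the classes from 40 to under 100 the medians were alike. At the weakest signals, 22 to under 30, the members had 6.995 (6.72 to 7.009) against 7.54 (7.43 to 7.62), and at 200 or more they had 14.0 (10.95 to 17.8) against 11.9 (11.002 to 13.9).

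Among the weakest 25% of signals, 29 of 260 members (11.2%, 7.88 to 15.6%) had a −log10 q of at least 5, against 6.36% (5.82 to 6.96%) of 7040 others. The median control there was 7.007 in the members and 8.46 in the others. It is computed from the p and is not a separate finding. The 18 members with an implied control of 0 were 2.27% of all members (1.44 to 3.55%), against 1.38% elsewhere and a background of 1.41%. The interval of the members lay just above both values, but it included the 1.78% of windows of 31 to 65 events. Among the members the share was uneven, with 4.04% in windows of at most 10 events, 0.610% in those of 11 to 20 and 2.45% in those of 21 to 30. High control values were rare in both kinds of window, with 10 members (1.26%) above 30, against 0.964% of other events. The highest was 70 at the chr09 event of signal 372 (12351589 to 12351789). That event had a −log10 q of 48.8, while the chr09 event of 414, with a control of 14.0, had 101.

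**Figure D5:**
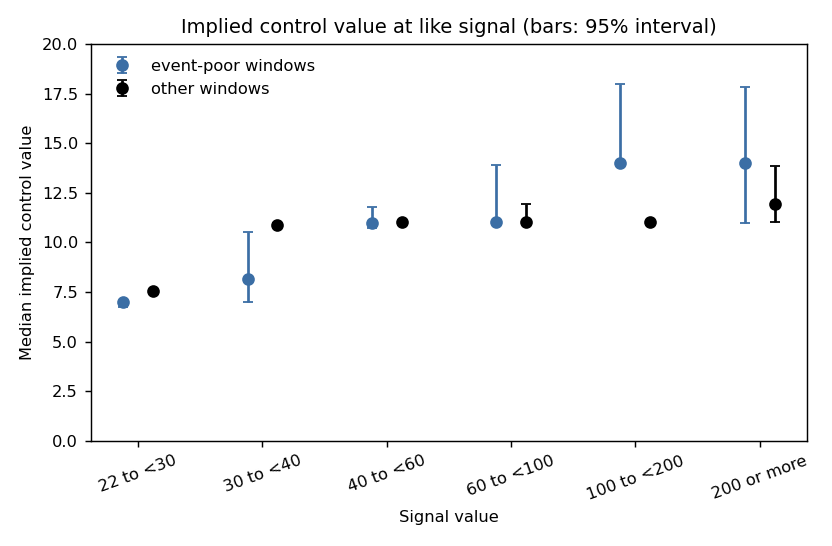
Median implied control value (vertical axis) in 6 classes of signal for events in event-poor windows (blue) and in the other windows (black), with 95% intervals of the median. The blue point is lower at signals of 30 to under 40 (8.14 against 10.9) and higher at 100 to under 200 (14.0 against 11.005).

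Spacing is tied to the choice of sparse windows, and is given as a description. The nearest other event lay at a median of 4457 bp from a member and 2868 bp from an event elsewhere. More than 20000 bp separated 146 members (18.4%) from their nearest neighbour, against 5.27% of other events and a background of 5.63%. Despite the density being lower by a factor of 4.27, close neighbours were still common. Within 1000 bp of another event stood 187 members (23.6%, 20.7 to 26.6%), against 28.4% elsewhere and a background of 28.3%. Within 200 bp, where events overlap in the list, stood 68 (8.56%, 6.81 to 10.7%), against 10.7% and a background of 10.6%. When the weaker of overlapping events were dropped and the windows recounted, the share was 16.04% within 1000 bp, against 19.5% elsewhere.

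Joined at 1000 bp, the members made up 691 separate sites, of which 607 were single events, 67 pairs, 16 groups of 3 and 1 a larger group. Groups of 3 or more held 53 members (6.68%), against 5.20% of other events, and the interval of the members (5.14 to 8.63%) included the background of 5.24%. Groups of any size held 23.6% of the members, below the 28.4% of other events. The group of 5 lay on chr08 with centres from 6981418 to 6983340 and was made of weak to middling events, with signals of 52.5, 47.8, 39.6, 35.4 and 56. It held 5 of the 15 events of its window. A group of 3 on chr05, with centres from 13945187 to 13945694, joined the event of 381.9 to 2 weak ones of 29.1 and 40. On chr18, a group of 3 from 17482051 to 17482467 had signals of 82.1 to 202.5, and this window had 30 events.

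In both kinds of window the median signal was highest within 200 bp of another event and lowest over 50000 bp from any. Members within 200 bp had a median of 61.3 (47.8 to 77.5), and those at 200 to 1000 bp 46.6 (39.8 to 55). Members at 1000 to 5000 bp had 48.8 (44 to 54), and those at 5000 to 20000 bp 42 (38 to 46.6). At 20000 to 50000 bp the median was 40 (34.9 to 48), and over 50000 bp it was 38 (30 to 49.9). From 200 bp outward these intervals all overlapped. Events of other windows had 63.3, 49.8, 49, 47, 44 and 39 in the same bands. At equal isolation the interval of the members excluded the value of the other windows in the band from 5000 to 20000 bp. It included that value in the other 5 of the 6 bands. The 57 members over 50000 bp from any event, 7.18% of all members, had a median close to that of the 171 such events elsewhere.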

How the data were processed

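The data were 1 list of MYBPA1 binding events in narrowPeak layout, with no columns per library. The tools fastp 0.21.0 and Bowtie2 2.0 stand in the submitters' processing notes, and the name of the deposited list points to the event caller GEM. How GEM was run, on which genome build, with which control and on which of the 2 MYBPA1 libraries is not given in the sources used here. Each event of the deposited list has a signal value, a −log10 p, a −log10 q and a display score, all from the authors. The score was not used. The signal never falls below 22 and its scaling is not stated, and −log10 q never falls below 2. Decimal commas were read as points. Events were 201 bp wide, and positions count from 1.

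Windows of 1 Mb were counted on event centres. The members and lists were chosen with earlier results of these data known. The regions named are the 10 strongest members, windows with 10 or fewer events, runs of 3 or more windows and windows at the limit. Other windows and groups were named after their values were seen. Shares carry 95% Wilson intervals and medians exact binomial (order statistic) intervals, and the interval of a difference is that of the members' median less the other median. No test was run. Window counting and the computation of the control value were checked on simulated data. There the signals were whole numbers and the p came from the same binomial test. The check therefore covers the arithmetic and not the test behind the deposited p. Values were computed with scipy 1.17.1, pandas 2.3.3 and numpy 2.4.6 under Python 3.11.15, and figures drawn with matplotlib 3.10.9.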

Additional observations from a re-analysis of the deposited data

How the results depend on the processing

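Alternatives were other limits (20 or 40 events), a grid shifted by 500 kb, windows of 500 kb with 15 or fewer events, a −log10 q floor of 5, dropping the weaker of events that overlap within 200 bp, leaving out each chromosome, and, chosen after seeing the data, leaving out windows of at most 10 events or chr09 and chr19 together. The difference in median signal stayed below 0 under all 28 alternatives (−6.5 to −2.0), but its interval included 0 with a −log10 q floor of 5 (−4.0, −7.8 to 2.0), against windows of 31 to 65 events and without chr19. It was −6.5 at a limit of 20 events, where the members' median was 42.6. With −log10 q of at least 5 the median was 67 and the signal over control 7.58, since that choice removes weak events, and other windows moved alike (71 and 7.57). The share of members with −log10 q of at least 5 stayed within its counting interval in all 26 alternatives (53.9 to 58.0%). For each result, 19 of the alternatives left out 1 chromosome. These kept most of the members, and all 794 without chr04 or chr17, so their values could move little and are not separate checks. The share in the top 1% was 0.499% on the shifted grid, and the cause was not tested. The share with a neighbour was 52.3% at 5000 bp and 16.04% without close events, both by construction. The share of events in event-poor windows follows the limit by construction: 0.903% at 20, 6.62% at 40, 3.69% with 500 kb windows, 3.08% without close events, 2.40% without windows of at most 10 events, 2.44, 2.51 and 2.51% without chr09, chr16 or chr19, and 2.20% without chr09 and chr19 together. No paired analysis was possible because no values per library exist in it, and leaving out a replicate was not possible for the same reason. With unknown depth, sites below the limits of the list cannot be counted.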
